A study of Mus musculus with 21 samples.

Results

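Bone morphogenetic protein (BMP) signaling was examined in mouse embryonic fibroblasts (MEFs) through 10 genes: the ligands *Bmp4* and *Bmp2*, the receptors *Bmpr1a* and *Bmpr2*, the inhibitors *Grem1*, *Bambi* and *Smad6*, and the target genes *Id1*, *Id2* and *Id3*. They were chosen by symbol from the 24454 genes of the deposited RNA sequencing table, all 10 were found in it, and all 10 passed the filter on low counts, as did 13719 genes in all. In this pathway a secreted BMP dimer joins type I and type II receptor kinases, which phosphorylate SMAD proteins that then enter the nucleus with SMAD4. The *Id* genes, whose products bind and hold back basic helix-loop-helix transcription factors, are among the best known direct targets of these SMADs, and *Smad6* is both a target and an inhibitor. Fibroblasts make BMPs and secreted antagonists such as Gremlin, and so can set the BMP activity that they and their neighbors receive.

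The 21 libraries formed 7 groups of 3. *Rtel1* F/F MEFs, in which Cre removes the floxed helicase gene *Rtel1*, were infected with an adenovirus carrying GFP (+GFP) or Cre (+Cre), and a further +GFP group received 10 μM TMPyP4, a ligand that stabilizes G-quadruplex (G4) DNA, for the last 48 h. *Rtel1* F/F MEFs that also carried a pBabe vector for RTEL1 C1252A/C1255A, a form of RTEL1 that cannot be recruited to telomeres through TRF2, were infected with GFP or Cre, as were *Terf1* F/F MEFs, in which Cre removes the telomere protein gene *Terf1* (TRF1). All cells were collected 96 h after infection, and every group, controls included, had therefore received adenovirus. Strain and age of the embryos are not given in the sources used here. The labels call the 3 libraries of each group biological replicates but do not say whether they came from separate cultures. The p values therefore measure only the spread between these libraries.

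Total counts were 32069888 to 51938593 per library. The targeted genes followed their labels in direction. *Rtel1* was at 59.1 to 66.2 CPM (counts scaled to the size of the library) in *Rtel1* F/F +GFP and 26.8 to 31.9 CPM in +Cre cells. Part of the *Rtel1* RNA was thus still counted after Cre, and its source was not tested. In vector-bearing cells *Rtel1* was at 328 to 338 CPM in +GFP and 253 to 283 CPM in +Cre libraries. *Terf1* fell from 27.9 to 30.3 CPM in *Terf1* F/F +GFP cells to at most 0.110 CPM in +Cre cells. The *Rtel1* F/F +GFP libraries stood apart. On the first principal component of the 15 libraries of *Rtel1* F/F background, which held 52.4% of the variance, they scored 55.7 to 76.4, and no other library scored over 26.4. Within this group, replicate 1 also deviated from the others in the opposite direction to replicate 1 of every other group for *Id1*, *Id3* and *Smad6*. On that component the vector-bearing +GFP libraries, which also lacked Cre and TMPyP4, scored -44.4 to -11.3. The labels name no batch. A difference in how the *Rtel1* F/F +GFP libraries were made or labelled and their lack of Cre, TMPyP4 and vector together cannot be told apart. This bears on every fold change against them. The +Cre and TMPyP4 groups were therefore also compared with the vector-bearing +GFP cells. The 8 fibroblast markers summed to between 7000 and 28652 CPM in all libraries, and *Myod1*, *Myog* and *Ckm* of skeletal muscle reached at most 0.0268 CPM. The summed level of 5 endothelial markers was 0.245 to 4.45 CPM and that of 5 blood and macrophage markers 1.53 to 6.62 CPM.

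The promoters of the members that moved most are shown because the *Rtel1* and TMPyP4 comparisons ask about G4 DNA. They come from the RefSeq table of GRCm38.p6, which held 7 of the 10 members. Each is the 250 bases before the transcription start listed there, 5′ to 3′ on the strand of the gene. Capitals mark a G4 motif, searched as 4 runs of at least 3 G with 1 to 7 bases between runs on the gene strand, and as the same with C for the other strand. The *Bmp4* window lies at chr14:46390670-46390919 (minus strand), the *Grem1* window at chr2:113758649-113758898 (minus strand) and the *Id3* window at chr4:136143572-136143821 (plus strand).
Bmp4: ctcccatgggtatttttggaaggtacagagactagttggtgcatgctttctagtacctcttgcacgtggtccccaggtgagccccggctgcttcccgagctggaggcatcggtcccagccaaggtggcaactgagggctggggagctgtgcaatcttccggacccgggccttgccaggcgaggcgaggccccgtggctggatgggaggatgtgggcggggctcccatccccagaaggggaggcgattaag
Grem1: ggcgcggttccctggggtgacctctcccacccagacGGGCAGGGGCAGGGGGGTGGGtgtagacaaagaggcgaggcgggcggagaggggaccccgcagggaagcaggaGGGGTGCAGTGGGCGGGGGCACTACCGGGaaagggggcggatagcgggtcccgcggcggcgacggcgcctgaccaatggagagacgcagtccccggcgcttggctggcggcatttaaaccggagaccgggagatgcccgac
Id3: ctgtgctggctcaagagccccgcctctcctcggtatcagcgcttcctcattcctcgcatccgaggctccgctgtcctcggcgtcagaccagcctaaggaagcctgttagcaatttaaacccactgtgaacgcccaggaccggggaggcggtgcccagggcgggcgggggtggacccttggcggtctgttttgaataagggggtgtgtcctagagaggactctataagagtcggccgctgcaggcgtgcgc

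The *Grem1* window held 2 matches on the gene strand, and the *Bmp4* and *Id3* windows held 0 on either strand. Among the other members, *Bmpr1a* had 1 match on each strand, *Smad6* had 1 on the gene strand, *Bmpr2* had 1 on the other strand and *Id2* had 0. Thus 4 of the 7 members had a match on either strand, beside 16.7% of the 32817 promoter windows of the same length in the table, where 9.10% had one on the gene strand and 8.47% on the other. For 2 of these members, both on the minus strand, the listed start was not the outermost one. The *Bmpr1a* window (chr14:34502547-34502796) lay inside the gene, whose span ended at 34503336. The *Smad6* window (chr9:64022060-64022309) ran into its gene, whose span ended at 64022085. GGCGCC, a GC-rich sequence bound by BMP-activated SMADs that reads the same on both strands, was found in 4 of the 7 windows (*Grem1*, *Bmpr1a*, *Bmpr2* and *Id2*) and in 9.59% of all windows. The windows of all 7 members were GC-rich, at 62.8% to 78.8% against a median of 52.4%, so that G-runs and GGCGCC are more likely to occur in them. A match is a description of the letters and says nothing of a structure or of binding.

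On a scale corrected for transcript length (TPM), the members spanned a wide range in *Rtel1* F/F +GFP cells. *Id3* was at 267 ± 107 TPM (SD, n = 3), *Id2* at 98.0 ± 24.96, *Bmpr1a* at 76.5 ± 4.59, *Id1* at 45.7 ± 17.5, *Bmpr2* at 31.1 ± 4.12 and *Bmp4* at 21.6 ± 5.89 TPM. *Smad6* was at 8.69 ± 0.936, *Grem1* at 7.19 ± 0.801, *Bambi* at 1.62 ± 0.0950 and *Bmp2* at 0.607 ± 0.215 TPM. *Bmp4* was thus the main one of the pair of ligands, and its level per length was above that of its secreted antagonist *Grem1*. In *Rtel1* F/F +Cre cells this order was turned around, as it was in every other group, the other +GFP controls included. The mean TPM of *Grem1* and *Bmp4* was 53.9 and 3.84 in vector-bearing +GFP cells and 82.8 and 15.5 in *Terf1* F/F +GFP cells. In *Rtel1* F/F +Cre cells *Grem1* was at 33.6 ± 2.74 TPM (SD, n = 3) and *Bmp4* at 1.66 ± 0.486 TPM. *Bmpr1a* (52.9 ± 7.30 TPM) and *Id2* (52.6 ± 6.45 TPM) were the most abundant members there.

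**Figure D1:**
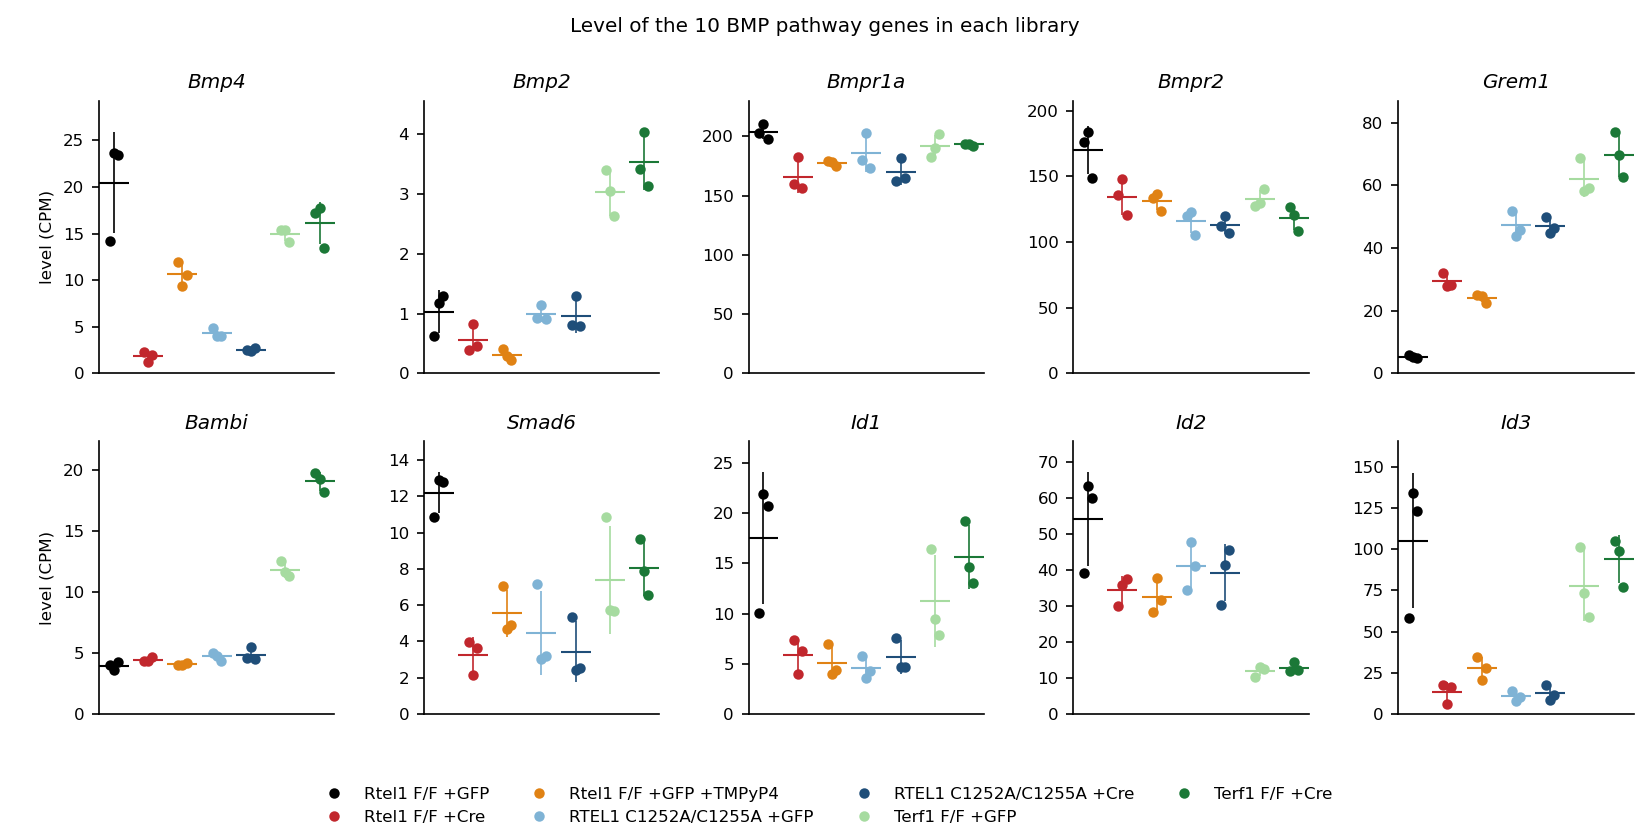
Level of each of the 10 genes in every library, in CPM on a linear axis from 0 that differs between panels, with points for the 3 libraries of each of 7 groups, a horizontal line at the mean and a vertical line of 1 SD each way. *Bmp4*, *Smad6* and *Id3* have their highest mean in *Rtel1* F/F +GFP cells and *Grem1* is lowest there, at 4.85 to 5.97 CPM, while *Bambi* and *Bmp2* are highest in both *Terf1* F/F groups.

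The first comparison asked how loss of RTEL1 changed the pathway. In *Rtel1* F/F cells +Cre against +GFP, *Bmp4* and the targets *Id3*, *Id1*, *Id2* and *Smad6* fell, and the antagonist *Grem1* rose. The quasi-likelihood test of edgeR, adjusted over all tested genes with 0.01 or less counted as a call, called 8 of the 10 members, 1 higher and 7 lower. Over all tested genes it called 43.0%, with 22.0% higher and 21% lower.

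*Bmp4*, on chromosome 14 (46383525 to 46390669, minus strand of GRCm38.p6), was at 14.2, 23.7 and 23.5 CPM in the 3 +GFP libraries and at 2.33, 1.24 and 1.99 CPM in the +Cre libraries. The groups did not overlap, and the lowest +GFP library was still well above the highest +Cre library. The log2 fold change was -3.46 (standard error, SE, 0.213, adjusted p = 6.0e-10 by edgeR), a level about 11 times lower. *Bmp2*, which encodes a closely related ligand, was near the limit of measurement, at 0.623, 1.17 and 1.302 CPM in +GFP and 0.396, 0.819 and 0.464 CPM in +Cre cells. Its libraries overlapped and its log2 fold change of -0.89 did not pass the test (95% interval -1.52 to -0.25, adjusted p = 0.019 by edgeR).

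The receptors moved little. *Bmpr1a*, a type I receptor for BMP2 and BMP4, was at 198 to 210 CPM in +GFP and 156 to 182 CPM in +Cre cells, and *Bmpr2*, the type II receptor, at 149 to 184 and 120 to 148 CPM. Both fell slightly, by 0.29 (SE 0.0694, adjusted p = 0.0016 by edgeR) and 0.33 (SE 0.0925, adjusted p = 0.0051) on the log2 scale. Leaving out *Rtel1* F/F +Cre replicate 3 or +GFP replicate 2 ended both calls (adjusted p up to 0.039 for *Bmpr1a* and 0.067 for *Bmpr2*). The *Bmpr1a* call was also lost without +GFP replicate 3 (adjusted p = 0.015) and the *Bmpr2* call without +Cre replicate 1 (0.013) or +GFP replicate 1 (0.021).

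*Grem1*, whose product Gremlin binds BMP2 and BMP4 outside the cell and blocks them, lies on chromosome 2 (113748675 to 113758648, minus strand). It was at 5.97, 5.10 and 4.85 CPM in +GFP and 32.05, 27.9 and 28.1 CPM in +Cre libraries. Every +Cre library was thus far above every +GFP library, and the difference was 2.47 in log2 (SE 0.106, adjusted p = 9.5e-12 by edgeR), or 5.53-fold. *Bambi*, a receptor-like protein without kinase activity that blocks signaling at the membrane, was at 3.98, 3.60 and 4.27 CPM against 4.36, 4.37 and 4.64 CPM, without overlap, a log2 difference of 0.17 that was not called (95% interval -0.02 to 0.37). *Smad6*, the intracellular inhibitor, went the other way from *Grem1*. It was at 10.9, 12.9 and 12.8 CPM in +GFP and 3.99, 2.16 and 3.66 CPM in +Cre libraries, with a log2 fold change of -1.90 (SE 0.377, adjusted p = 4.2e-04).

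All 3 *Id* genes fell. *Id3* was at 58.3, 134 and 123 CPM in +GFP and 17.5, 6.33 and 16.5 CPM in +Cre cells (log2 fold change -2.97, SE 0.407, adjusted p = 1.2e-05 by edgeR). *Id1* was at 10.0, 21.9 and 20.8 CPM in +GFP and 7.34, 3.97 and 6.25 CPM in +Cre cells (-1.58, SE 0.351, adjusted p = 0.0011). For both, the groups did not overlap but +GFP replicate 1 lay between the other +GFP libraries and the +Cre cells. *Id2*, the most even of the 3, was at 39.2, 63.4 and 60.1 CPM against 29.9, 35.9 and 37.6 CPM and fell by 0.65 (SE 0.183, adjusted p = 0.0058). The *Id2* call was lost when any library other than +GFP replicate 1 was left out (adjusted p 0.014 to 0.054), while *Bmp4*, *Grem1*, *Smad6*, *Id1* and *Id3* kept theirs without any 1 library. Without +GFP replicate 1 the log2 fold changes were -3.66 for *Bmp4*, -3.26 for *Id3*, -1.86 for *Id1*, -0.84 for *Id2* and 2.56 for *Grem1*. *Bmp2* then passed the test at -1.14 (adjusted p = 0.0028), as it did without +Cre replicate 2 (-1.29, adjusted p = 0.0043).

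Markers of other cells moved with these changes. The summed level of 5 cartilage and bone markers (*Sox9*, *Acan*, *Col2a1*, *Sp7* and *Bglap*) was 109 to 146 CPM in *Rtel1* F/F +GFP libraries, 21.7 to 33.5 CPM in +Cre and 14.8 to 34.0 CPM in every other library. Most of this was *Col2a1*, a cartilage collagen, which fell from 76.8 to 115 CPM to 3.45 to 9.51 CPM, and *Sox9* fell as well, by 0.57 on the log2 scale. The 8 fibroblast markers fell from 19178 to 21123 CPM in sum to 7302 to 10084 CPM. Of these markers 6 were called lower, and *Thy1*, with a mean of at most 0.230 CPM in either group, was called higher. Their part in the *Bmp4* and *Id* results was not tested, and in bulk RNA fewer cells of a type and less RNA per cell cannot be told apart.

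The next comparison asked whether stabilizing G4 DNA in cells that keep RTEL1 moved the same genes. TMPyP4-treated *Rtel1* F/F +GFP cells were set against the same untreated +GFP libraries, so both comparisons share their controls. edgeR called 7 of the 10 members, 1 higher and 6 lower, beside 30.0% of all tested genes (16.6% higher and 13.4% lower). *Grem1* rose and *Bmp4*, *Bmp2*, the *Id* genes and *Bmpr2* fell. *Bmp4* was at 11.9, 9.42 and 10.6 CPM in treated libraries, all below the untreated ones. The fall was of 0.95 on the log2 scale (SE 0.186, adjusted p = 0.000555), against 3.46 after *Rtel1* loss.

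*Bmp2* was at 0.412, 0.289 and 0.215 CPM in treated cells and fell by 1.79 (SE 0.337, adjusted p = 3.8e-04). *Grem1* was at 25.1, 24.6 and 22.6 CPM, a rise of 2.18 (SE 0.105, adjusted p = 3.1e-10) with no overlap with untreated cells. *Id3* was at 34.8, 20.9 and 27.6 CPM (log2 fold change -1.92, adjusted p = 0.000845), *Id1* at 6.97, 3.999 and 4.37 CPM (-1.79, adjusted p = 7.4e-04) and *Id2* at 28.3, 37.8 and 31.7 CPM (-0.73, adjusted p = 0.0038). *Smad6*, at 7.04, 4.70 and 4.90 CPM, lay below every untreated library, but its log2 fold change of -1.14 missed the threshold (95% interval -1.91 to -0.37, adjusted p = 0.018). DESeq2 and a fit of these groups alone both called it (adjusted p = 0.0029 and 6.7e-04). *Bmpr2* fell by 0.37 (adjusted p = 0.0034), while *Bmpr1a* (-0.20, 95% interval -0.34 to -0.05) and *Bambi* (0.04, -0.16 to 0.24) were not called. The *Id2* call was lost without +GFP replicate 2 or 3 or treated replicate 1 or 3 (adjusted p 0.017 to 0.033), and that of *Bmpr2* without +GFP replicate 1 or 2 or treated replicate 3 (0.014 to 0.032). Cartilage and bone markers summed to 23.0 to 34.0 CPM and fibroblast markers to 10462 to 14081 CPM in treated cells, lower than in untreated cells in both cases, and their part in these results was not tested.

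Set directly against each other, +Cre and TMPyP4-treated cells had *Bmp4* alone among the members called by edgeR, 1 of 10 beside 15.2% of all tested genes (6.13% higher in +Cre and 9.09% lower). The level of *Bmp4* after *Rtel1* loss was below that after TMPyP4, at a log2 difference of -2.52 (SE 0.210, adjusted p = 1.1e-07), a level 5.72 times lower, and the libraries did not overlap. *Id3* was lower by 1.05 without a call (95% interval -1.87 to -0.22, adjusted p = 0.060), and *Bmp2* higher by 0.90 (0.12 to 1.68, adjusted p = 0.085). For *Id1* (0.20, 95% interval -0.56 to 0.96) and *Id2* (0.08, -0.31 to 0.47) neither direction was resolved. In these cells libraries with the same replicate number deviated together, and a fit blocked on that number called 3 members, adding *Grem1* (0.28 higher in +Cre, adjusted p = 0.0022) and *Smad6* (-0.76, adjusted p = 0.0087).

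**Figure D2:**
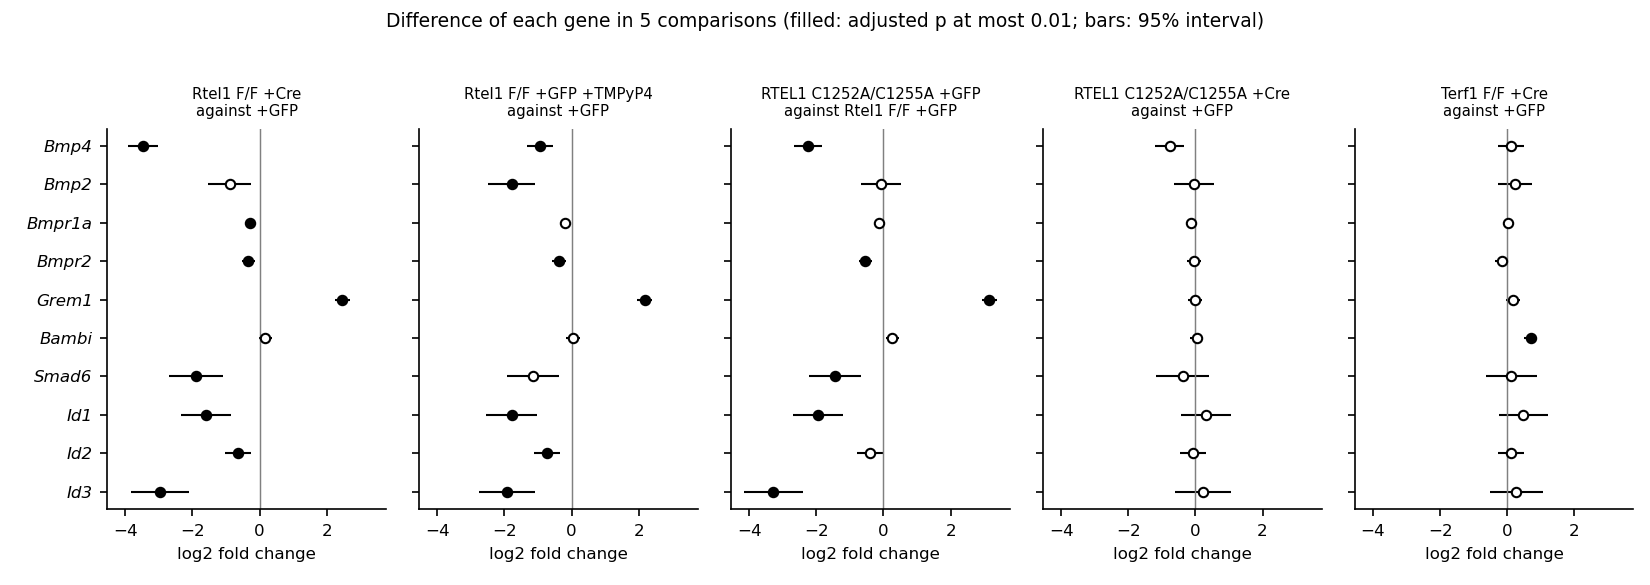
Log2 fold change of each of the 10 genes (x axis) in 5 comparisons, with 95% intervals as bars and filled points where edgeR gave an adjusted p of 0.01 or less. The first 3 panels share their *Rtel1* F/F +GFP libraries and show *Grem1* at 2.18 to 3.15 and *Id3* at -3.29 to -1.92, whereas +Cre against +GFP with the RTEL1 C1252A/C1255A vector has 0 filled points and in *Terf1* F/F cells only *Bambi* is filled.

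Cells carrying RTEL1 C1252A/C1255A asked whether removing endogenous *Rtel1* acted on these genes while this form, not recruited to telomeres through TRF2, was present. With this vector, Cre changed none of the members past the threshold (0 of 10 by edgeR, 1 at an unadjusted p under 0.05, and 1 by DESeq2). Over all tested genes 1.09% were called, 0.525% higher and 0.569% lower. The +GFP libraries had *Bmp4* at 4.82, 4.02 and 4.04 CPM and the +Cre libraries at 2.53, 2.36 and 2.68 CPM, without overlap. Its log2 fold change was -0.77 (95% interval -1.20 to -0.34, adjusted p = 0.048 by edgeR), and DESeq2 called it (adjusted p = 0.0067). *Grem1* ranged from 43.9 to 51.9 CPM before and from 44.9 to 49.98 CPM after Cre, a difference of -0.00 with an interval of -0.21 to 0.20. *Id3* ranged from 7.65 to 14.1 and from 8.52 to 17.7 CPM (0.23, 95% interval -0.60 to 1.06), and *Id1* from 3.58 to 5.79 and from 4.64 to 7.59 CPM (0.31, -0.44 to 1.07).

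The difference between the effects of Cre without and with the vector was itself tested, and 4 members differed by edgeR, beside 25.1% of all tested genes. It was -2.69 for *Bmp4* (SE 0.290, adjusted p = 2.4e-06), 2.47 for *Grem1* (SE 0.142, adjusted p = 6.4e-09), -3.20 for *Id3* (SE 0.558, adjusted p = 3.1e-04) and -1.90 for *Id1* (SE 0.499, adjusted p = 0.0068). The *Id1* call was lost in 7 of the 12 fits with 1 library left out (adjusted p up to 0.025).

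These differences rest on where each pair of groups started. Before any Cre, vector-bearing +GFP cells already had low *Bmp4*, *Id3*, *Id1* and *Smad6* and high *Grem1*. Against *Rtel1* F/F +GFP cells, 6 of 10 members were called, 1 higher and 5 lower, beside 44.7% of all tested genes (22.6% higher and 22.1% lower). *Bmp4* was lower by 2.25 (SE 0.196, adjusted p = 4.0e-08 by edgeR), *Id3* by 3.29, a log2 difference of -3.29 (SE 0.413, adjusted p = 4.6e-06), and *Id1* by 1.95, a difference of -1.95 (adjusted p = 2.0e-04). *Grem1* was higher by 3.15 (SE 0.108, adjusted p = 5.2e-13), or 8.90-fold, and its libraries lay far from any of the other group. *Smad6* was lower at -1.44 (adjusted p = 0.0031), a call lost without vector-bearing +GFP replicate 2 or 3 (0.019 and 0.017), and *Bmpr2* at -0.55 (adjusted p = 7.2e-05). Cartilage and bone markers, at 22.2 to 29.9 CPM in the vector-bearing +GFP cells, and fibroblast markers, at 8467 to 12325 CPM, differed between the controls as well. The vector, the separate handling of its line and any difference between the libraries cannot be told apart.

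*Rtel1* F/F +Cre cells were therefore also compared with the vector-bearing +GFP cells, which keep endogenous *Rtel1*. edgeR then called 2 of 10 members, 0 higher and 2 lower, beside 7.76% of all tested genes (3.80% higher and 3.95% lower). *Bmp4* was still lower, by 1.21 (SE 0.211, adjusted p = 6.0e-04), but a fit of only these groups did not call it (adjusted p = 0.030). *Grem1* changed direction. It was lower in +Cre cells, at 27.9 to 32.05 CPM, than in vector-bearing +GFP cells, with a log2 difference of -0.69 (SE 0.0976, adjusted p = 7.9e-05). *Id3* (0.32, 95% interval -0.52 to 1.15), *Id1* (0.36, -0.40 to 1.12) and *Smad6* (-0.46, -1.27 to 0.34) were not called, and the intervals of *Id3* and *Id1* lie above the falls of 2.97 and 1.58 measured against *Rtel1* F/F +GFP cells.

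TMPyP4-treated cells set against the same controls had 3 called members, 1 higher and 2 lower, beside 17.0% of all tested genes (9.94% higher and 7.07% lower). Here *Bmp4* changed direction. It was 1.31 higher in treated cells (SE 0.195, adjusted p = 6.9e-05 by edgeR), with no overlap. *Grem1* was lower at -0.97 (adjusted p = 9.7e-07) and *Bmp2* at -1.72 (adjusted p = 0.0011). *Bmp2* was thus the one member that was called in the same direction against both controls after TMPyP4, as *Bmp4* was after *Rtel1* loss. *Id3* was at 1.36 (95% interval 0.53 to 2.20) without a call by edgeR (adjusted p = 0.016) and with one by DESeq2 (0.0045).

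**Figure D3:**
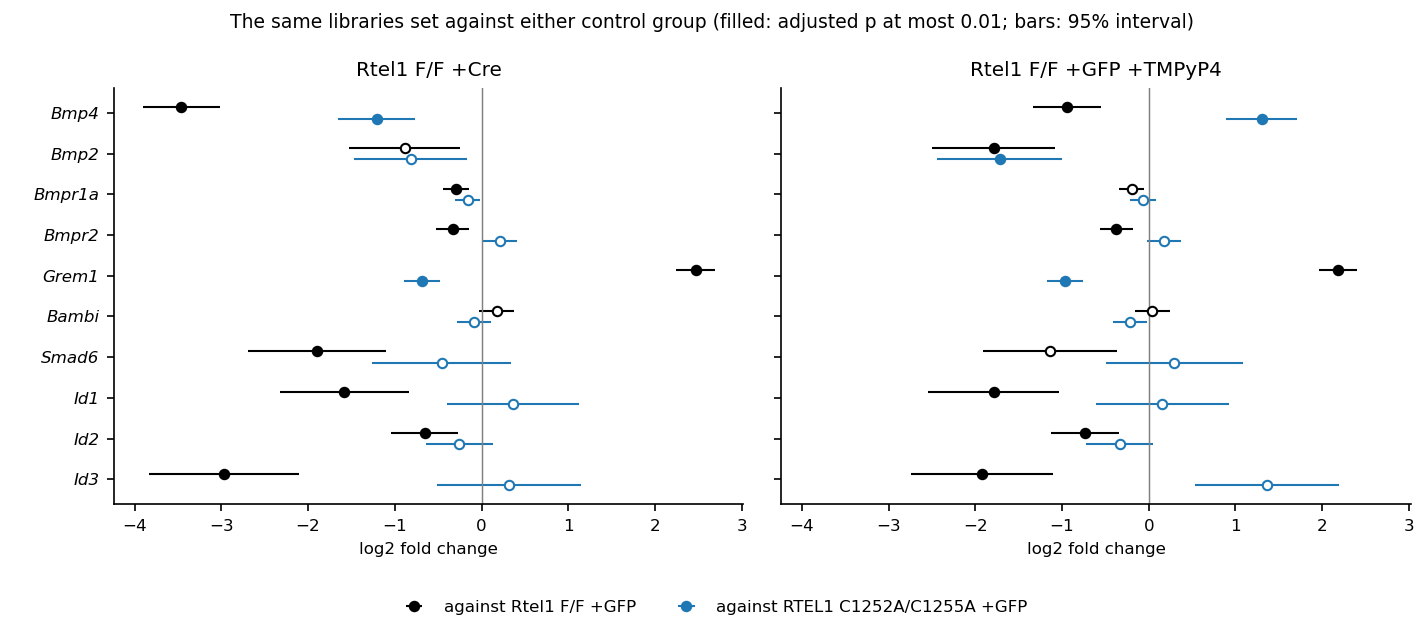
Log2 fold change (x axis) of the 10 genes in *Rtel1* F/F +Cre cells (left) and TMPyP4-treated cells (right) against *Rtel1* F/F +GFP libraries in black and against RTEL1 C1252A/C1255A +GFP libraries in blue, with 95% intervals as bars and filled points where edgeR gave an adjusted p of 0.01 or less. *Grem1* lies on opposite sides of 0 for the different controls in both panels (2.47 and -0.69, and 2.18 and -0.97), and *Bmp4* does so after TMPyP4 (-0.95 and 1.31).

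*Terf1* F/F cells asked whether loss of another telomere factor moved the pathway. After Cre 1 of 10 members was called, beside 3.42% of all tested genes (2.65% higher and 0.765% lower). That gene was *Bambi*, at 12.5, 11.6 and 11.3 CPM in +GFP and 19.7, 19.3 and 18.2 CPM in +Cre libraries, which rose by 0.69 (SE 0.0882, adjusted p = 4.3e-05 by edgeR) without overlap. *Bmp4* ranged from 14.1 to 15.4 CPM without Cre and from 13.5 to 17.7 CPM after it (0.11, 95% interval -0.28 to 0.50). *Grem1* was at 58.1 to 68.7 and 62.7 to 76.9 CPM (0.17, -0.03 to 0.37), and *Id3* at 58.9 to 101 and 77.3 to 105 CPM (0.27, -0.52 to 1.06). When the Cre effects of *Rtel1* F/F and *Terf1* F/F cells were set against each other, 6 members differed by edgeR, beside 30.2% of all tested genes. The differences (*Rtel1* F/F minus *Terf1* F/F) were -3.57 for *Bmp4*, -3.24 for *Id3*, -2.06 for *Id1*, -2.02 for *Smad6*, -0.52 for *Bambi* and 2.30 for *Grem1* (adjusted p from 2.1e-09 to 0.0049). Those of *Bambi* and *Smad6* were lost in several fits with 1 library left out (adjusted p up to 0.0195 and 0.0153).

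The lines also differed without Cre. Against *Rtel1* F/F +GFP cells, 5 members were called in *Terf1* F/F +GFP cells, 3 higher and 2 lower, beside 54.9% of all tested genes (30.3% higher and 24.5% lower). *Grem1* was higher by 3.55 (11.7-fold), *Bambi* by 1.58 and *Bmp2* by 1.55, where *Bmp2* reached 2.63 to 3.41 CPM. *Id2* was lower, at 10.4 to 13.2 CPM and a log2 difference of -2.18 (adjusted p = 1.9e-08 by edgeR), and *Bmpr2* at -0.36 (adjusted p = 0.0026), a call lost without +GFP replicate 1 or 2 of either line (0.010 to 0.023). For *Bmp4* (-0.45, adjusted p = 0.038), *Id1* (-0.64, 95% interval -1.36 to 0.08) and *Id3* (-0.43, -1.22 to 0.36) no difference was called, but *Bmp4* was called without *Rtel1* F/F +GFP replicate 1 (-0.67, adjusted p = 0.0019). High *Grem1* was thus found both beside low *Bmp4* and *Id3*, in vector-bearing cells, and beside levels of *Bmp4* and *Id3* near those of *Rtel1* F/F +GFP cells, in *Terf1* F/F cells.

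Ordered by their means over all 7 groups, *Bmp4* levels fell from *Rtel1* F/F +GFP (20.5 ± 5.38 CPM, SD, n = 3) to *Terf1* F/F +Cre (16.1 ± 2.29), *Terf1* F/F +GFP (15.0 ± 0.722), TMPyP4-treated (10.6 ± 1.25), vector +GFP (4.29 ± 0.459), vector +Cre (2.52 ± 0.160) and *Rtel1* F/F +Cre cells (1.85 ± 0.558 CPM). The first 3 overlapped, and from there on each group's libraries lay entirely below those of the group before. *Id3* ran from 105 ± 40.9 CPM in *Rtel1* F/F +GFP through 93.8 ± 14.6 and 77.9 ± 21.4 in *Terf1* F/F +Cre and +GFP to 27.8 ± 6.97 after TMPyP4 and 10.8 to 13.4 CPM on average in the remaining 3 groups, whose libraries overlapped. *Grem1* did not mirror the *Bmp4* order, as the *Terf1* F/F groups were high in both. It was lowest in *Rtel1* F/F +GFP cells (5.30 ± 0.587 CPM), then 24.1 ± 1.34 after TMPyP4 and 29.3 ± 2.35 in *Rtel1* F/F +Cre cells. Higher means were 47.0 ± 2.63 and 47.2 ± 4.19 in vector +Cre and +GFP, and 62.0 ± 5.86 and 69.7 ± 7.09 CPM in *Terf1* F/F +GFP and +Cre cells. Only the last pair and the pair of vector-bearing groups overlapped.

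Across the 21 libraries, *Id1*, *Id3*, *Smad6* and *Bmp4* varied together. Pearson's r of log2 CPM was 0.92 between *Id1* and *Id3*, 0.91 between *Bmp4* and *Id3*, 0.89 between *Smad6* and *Id3*, 0.86 between *Smad6* and *Id1* and 0.85 between *Bmp4* and *Smad6*. The weakest of these pairs was *Bmp4* and *Id1*, at 0.73. *Grem1* had weaker relations with them (-0.25 with *Bmp4*, -0.22 with *Id3*), and *Id2* went against *Bambi* (-0.90). These values describe 21 points that come from 7 groups and share their libraries, and no test was made of them. Among 10238 genes averaging 5 CPM or more, those most like *Bmp4* were *Fzd1*, *Spry1*, *Cyp1b1*, *Mmp2* and *Rab3il1* (r of 0.97 for each over 21 libraries). Among the 5 most like *Grem1* were *Cipc*, *Mfap3l*, *Gtf2f2* and *Pdcd6ip* (0.95 to 0.96), and those most like *Id1* were *Slc27a1*, *Tctn2*, *Ltbp2*, *Fam43a* and *Klhdc8b* (0.95 to 0.96).

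Within groups, the member target genes other than *Id2* also shared a pattern. *Id1*, *Id3* and *Smad6* were each highest in the library numbered 1 in 6 of 7 groups, and lowest in it in the remaining one, *Rtel1* F/F +GFP. *Grem1* was highest and *Id2* lowest in that library in all 7 groups. In vector-bearing +GFP cells, for instance, *Smad6* was at 7.17 CPM in replicate 1 and at 3.04 and 3.22 CPM in the others.

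**Figure D4:**
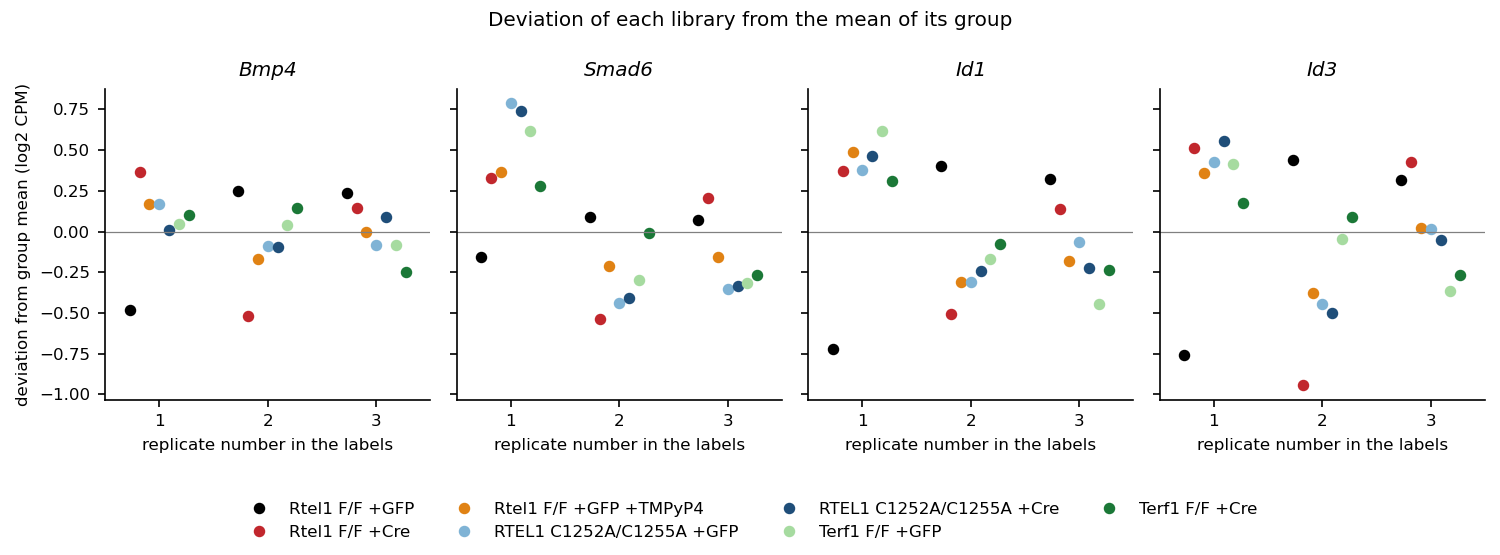
Deviation of each library from the mean of its group in log2 CPM (y axis) by the replicate number in the labels (x axis), for *Bmp4*, *Smad6*, *Id1* and *Id3*, with 1 color per group and points set side by side only for legibility. For *Smad6*, *Id1* and *Id3* the libraries numbered 1 lie above 0 in 6 groups and below 0 in *Rtel1* F/F +GFP.

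The wider pathway was described by lists of further ligands, receptors, antagonists, SMADs and targets. After *Rtel1* loss, among 12 tested antagonists 3 were higher and 5 lower, with a median log2 fold change of -0.38 beside -0.03 over all tested genes. *Chrdl1* (-2.44, adjusted p = 2.5e-07 by edgeR) and *Nbl1* (-1.08, adjusted p = 1.9e-05), which like Gremlin bind BMPs outside the cell, fell. After TMPyP4, 4 antagonists were higher and 5 lower (median -0.34 beside -0.01). *Bmper*, a secreted BMP modulator, rose by 1.41, while *Chrdl1* fell (-1.56). Set against vector-bearing +GFP cells, *Chrdl1* was also lower after *Rtel1* loss (-1.29, adjusted p = 0.0017 by edgeR) but was not called after TMPyP4 (-0.42, adjusted p = 0.22). *Nbl1* had the opposite sign there without a call, at 0.19 after *Rtel1* loss and 0.34 after TMPyP4 (adjusted p = 0.53 and 0.13). *Bmper*, higher after *Rtel1* loss against *Rtel1* F/F +GFP cells (0.70), was lower against the vector-bearing cells (-1.02, adjusted p = 5.4e-06), and its sign also turned after TMPyP4 (-0.31, adjusted p = 0.048, not called).

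Of 9 tested further receptors and co-receptors, 1 was higher and 3 were lower after *Rtel1* loss (median -0.03), and 0 and 2 after TMPyP4 (median -0.48). Over all tested genes 43.0% and 30.0% were called. *Eng*, the co-receptor endoglin, fell from 8.57 to 8.93 CPM to 1.69 to 2.38 CPM after *Rtel1* loss (-2.08, adjusted p = 1.8e-07) and to 1.59 to 2.98 CPM after TMPyP4 (-1.94, adjusted p = 1.2e-06), and *Rgma*, another co-receptor, fell after *Rtel1* loss (-1.33) but was not called against vector-bearing +GFP cells (-0.61, adjusted p = 0.20). *Eng* was at 5.43 to 7.60 CPM in vector-bearing +GFP cells and so was lower in both +Cre (-1.69) and treated cells (-1.56) than in those cells too. Of 7 tested further ligands, 0 were higher and 1 was lower after *Rtel1* loss (median -0.27), and none was called after TMPyP4 (0 by edgeR, median 0.00). That ligand, *Bmp3*, named after its values were seen, was at 0.668 to 1.56 CPM in +GFP libraries and had 0 counts in all 3 +Cre libraries, and so was at least 15.1-fold lower, taking 3 counts per library as the limit. All 7 ligands had means of at most 1.77 CPM in the groups compared, so a missing call says little about them. *Gdf6*, also named after its values were seen, had a mean of 0 CPM in these groups. It passed the filter through *Terf1* F/F cells, and its fixed value of 0 is the median after TMPyP4.

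Among 7 SMAD and SMURF genes, 1 was higher and 2 were lower after *Rtel1* loss (median -0.11) and 0 and 1 after TMPyP4 (median 0.07). The shares over all tested genes were 43.0% after *Rtel1* loss and 30.0% after TMPyP4. Among 10 further BMP targets, 1 and 2 were called after *Rtel1* loss (median -0.16) and 0 and 4 after TMPyP4 (median -0.35). Some of these calls were near the limit of measurement. *Dlx5*, lower in both, and *Tbx2*, lower after TMPyP4, had means of at most 0.311 and 0.0973 CPM in the groups compared. *Msx1* had a mean of 0 CPM there, and all were named after their values were seen. *Atoh8*, a target that encodes a basic helix-loop-helix factor, fell after both *Rtel1* loss and TMPyP4, by 2.79 (adjusted p = 4.7e-07) and 2.03 (adjusted p = 2.3e-05). It was at 5.23 to 10.6 CPM in *Rtel1* F/F +GFP cells and at most at 3.07 CPM in any other library. Like *Id3*, it was low in vector-bearing +GFP cells, at 1.06 to 1.34 CPM, and against those cells it was not called after *Rtel1* loss (adjusted p = 1 by edgeR) or TMPyP4 (0.76, adjusted p = 0.077).

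The TGF-β branch, which shares SMAD4 and some receptors with the BMP branch, moved in both directions. Of 12 tested genes, 4 were higher and 7 lower after *Rtel1* loss (median -0.27), and 4 and 4 after TMPyP4 (median -0.12). Beside these stand 43.0% and 30.0% of all tested genes. *Tgfb1* (-1.30), *Tgfb2* (-1.15) and *Tgfb3* (-1.35), which encode the ligands, fell after *Rtel1* loss with the matrix protein gene *Tgfbi* (-2.38). *Ctgf* (1.26) and *Inhba* (1.22) rose. TMPyP4 gave *Ctgf* 1.34, *Inhba* 1.20, *Tgfb1* -1.18 and *Tgfbi* -1.50. Against vector-bearing +GFP cells *Tgfbi* changed direction and was higher both after *Rtel1* loss (0.50, adjusted p = 0.0035 by edgeR) and after TMPyP4 (1.38, adjusted p = 4.0e-08). *Ctgf* (-0.20 and -0.11) and *Tgfb1* (0.24 and 0.36) also had the opposite sign there, without a call. *Inhba* kept its sign without a call (0.68 and 0.65, adjusted p = 0.019 and 0.013). *Tgfb3* was still lower after *Rtel1* loss (-0.77, adjusted p = 5.6e-05), and *Tgfb2* was not called (-0.24, adjusted p = 0.18). In vector-bearing cells Cre moved *Tgfb3* (-0.57) and, among further BMP targets, *Runx2* (-0.39). No other gene of these lists was called there (2 called by edgeR in all, beside 1.09% of all tested genes). *Runx2* was named after its values were seen.

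**Figure D5:**
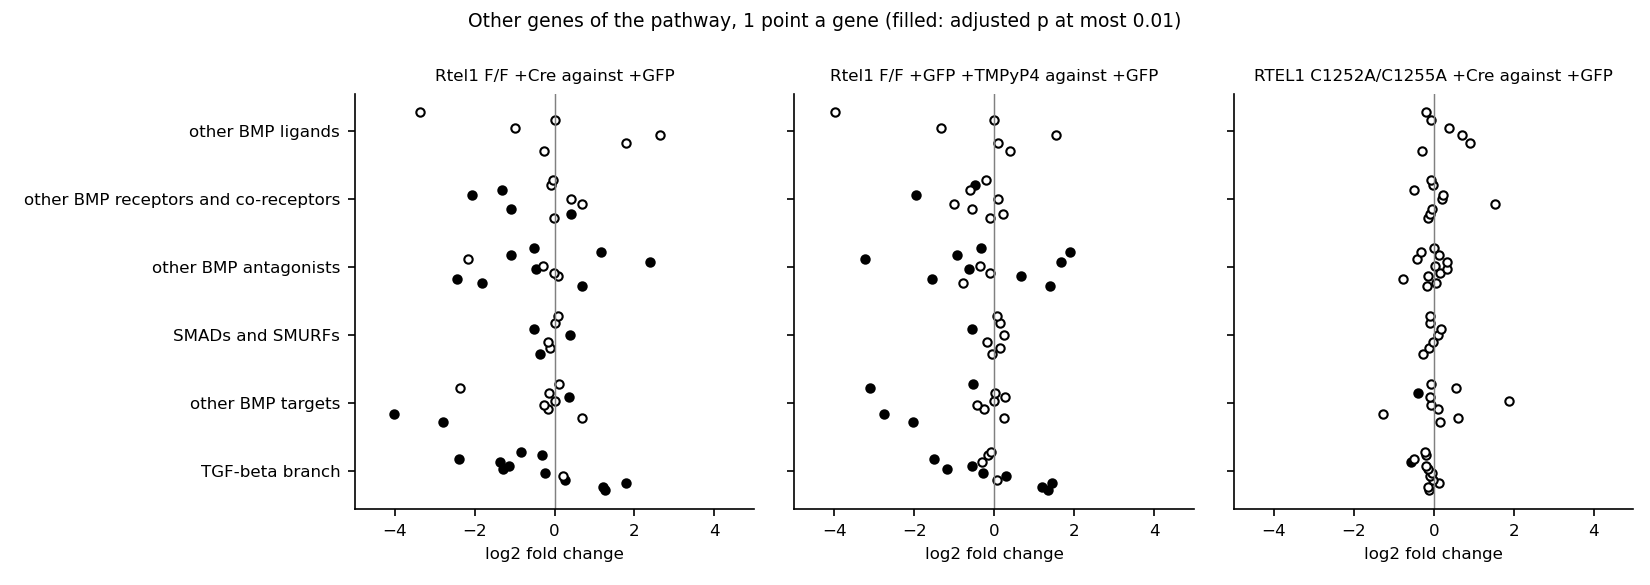
Log2 fold change (x axis) of every tested gene of 6 lists of the pathway (y axis) in 3 comparisons, with 1 point a gene and filled points where edgeR gave an adjusted p of 0.01 or less, and without *Bmp3*, which has 0 counts in *Rtel1* F/F +Cre cells. Filled points lie on both sides of 0 for the antagonists and the TGF-β branch after *Rtel1* loss and TMPyP4, and 2 are filled after Cre in RTEL1 C1252A/C1255A cells.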

How the data were processed

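RNA of 21 MEF libraries, 3 in each of 7 groups taken from the labels, was analysed. Per the labels, the authors trimmed single-end, strand-specific poly(A) reads with cutadapt 1.9.1, aligned them to mm10 with STAR 2.5.2a and deposited, for 24454 RefSeq genes, the expected counts that RSEM 1.3.0 estimated, all whole numbers, and the TPM values. Expected counts are not normalized, and TPM are scaled for transcript length and were used here only to compare genes. The labels and the methods of the study differ in read length and serum, and the values do not settle which applies. Expected counts share ambiguous reads between genes by estimate. On the opposite strand, 2 annotated genes overlap *Bmp4* and 1 overlaps *Bmpr1a*, which strand-specific counting separates. On the same strand, 1 annotated gene (*Gm38125*) overlaps *Bmpr2*, and strand-specific counting does not separate these.

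The counts were tested in R 4.3.3 with edgeR 4.0.16 (TMM, filterByExpr by group, robust quasi-likelihood fit of all 7 groups with 14 residual degrees of freedom, two-sided, Benjamini-Hochberg over 13719 genes, adjusted p at most 0.01). Standard errors are the log2 fold change over the square root of F. The script was tested on simulated data. CPM use TMM library sizes, errors are SDs over 3 libraries, intervals are 95%, and log2 CPM has a prior count of 2. No 2 libraries shared more than 2.66% of the counts of 13060 genes. The members, lists and tests were chosen with earlier results of these data known. All members are named, and listed genes of at least 5 CPM in a compared group with a call and an absolute log2 fold change of at least 1 after *Rtel1* loss or TMPyP4, with the 5 genes most correlated with *Bmp4*, *Grem1* and *Id1*. Some genes that met this rule are counted in the lists but not reported here by name. Each result was also computed with DESeq2 1.42.0, with DESeq2 size factors inside edgeR, without a filter, with at least 10 counts required in every library, in a fit limited to the groups compared, with a block for the replicate number, at a threshold of 0.05, and with each library left out.

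Pairing by replicate number was taken to hold where the deviations of all 3 same-numbered pairs from their group means, over 11840 genes of at least 1 CPM, correlated above 0.1. It held between vector +Cre and +GFP (0.86, 0.84 and 0.42), *Rtel1* F/F +Cre and TMPyP4 (0.72, 0.76 and 0.41), and between vector +GFP cells and *Rtel1* F/F +Cre (0.78, 0.81 and 0.20) or TMPyP4-treated cells (0.78, 0.69 and 0.30), but not where *Rtel1* F/F +GFP or both *Terf1* F/F groups were compared. Figures used Python 3.11.15 and matplotlib 3.10.9.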

Additional observations from a re-analysis of the deposited data

Results flagged for a closer look

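The effect of Cre differed between *Rtel1* F/F cells without and with the RTEL1 C1252A/C1255A vector, by a test of the difference in the edgeR fit, for *Bmp4* (-2.69 on the log2 scale), *Grem1* (2.47), *Id1* (-1.90) and *Id3* (-3.20). It differed between *Rtel1* F/F and *Terf1* F/F cells for *Bmp4* (-3.57), *Grem1* (2.30), *Bambi* (-0.52), *Smad6* (-2.02), *Id1* (-2.06) and *Id3* (-3.24). All 10 differences share the *Rtel1* F/F +GFP libraries, which stand apart from the other *Rtel1* F/F background libraries, and those of the vector-bearing line start from +GFP cells in which *Bmp4*, *Id1* and *Id3* are already lower and *Grem1* is already higher.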

How the results depend on the processing

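Of 43 member differences that passed the threshold, 0 changed sign in 573 alternative values, 519 kept their call and 54 lost it. Of 67 that did not pass, 25 of 856 alternative values passed and 28 changed sign, none of these beyond 0.153. The number of called members after *Rtel1* loss was 8 and fell to 5 in a fit of only the groups compared, where *Bmpr1a*, *Bmpr2* and *Id2* were lost. *Bmpr2* also lost its call there with the size factors of DESeq2 (adjusted p = 0.012), and *Bmpr2* (0.012) and *Id2* (0.010) lost theirs without the filter. With a library left out, counts were 5 to 8 after *Rtel1* loss (5 without *Rtel1* F/F +Cre replicate 3 or +GFP replicate 2), 5 to 7 after TMPyP4, 0 and 0 for Cre in vector-bearing cells, 1 and 1 in *Terf1* F/F cells, and 1 and 1 for +Cre against TMPyP4. They were 5 to 7 and 4 to 5 for vector-bearing and *Terf1* F/F against *Rtel1* F/F +GFP cells, 2 and 2 and 3 and 3 for *Rtel1* F/F +Cre and TMPyP4 against vector-bearing +GFP cells, and 3 to 5 and 4 to 8 for the differences of Cre effects. For Cre in vector-bearing cells, DESeq2 and an adjusted p of at most 0.05 each gave 1 (*Bmp4*) in place of 0. For +Cre against TMPyP4 the latter gave 2, and the replicate block gave 3, in place of 1. For *Rtel1* F/F +Cre against vector-bearing +GFP cells, only the groups compared gave 1 in place of 2.

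Where pairing by number held, the replicate block also called *Id2* in TMPyP4-treated against vector-bearing +GFP cells (-0.34, adjusted p = 0.0092). Where samples share only a number, it called *Bmpr1a* and *Smad6* after TMPyP4, *Id2* between the *Rtel1* F/F controls, *Smad6* between *Terf1* F/F and *Rtel1* F/F +GFP cells, and *Smad6*, *Id2* and *Bmpr1a* in differences of Cre effects. It ended no call. *Bmp2*, at about 1 CPM or less outside *Terf1* F/F cells, is limited by its counts.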
